A study of Rattus norvegicus with 8 samples.

Results

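The IL-6 family cytokine signalling genes described here are 8 of the 18166 genes measured with a single symbol on kidney arrays from a rat model of calcium oxalate stones. They are the ligand genes Lif and Il6, the receptor genes Osmr, Lifr, Il6r and Il6st, the transcription factor gene Stat3 and the feedback inhibitor gene Socs3, taken by symbol, and each was measured by 1 probe set. The genes were chosen by their pathway with the intensities of Lif and others on these arrays already known, so the ranges within a region are given as a description with no test. The animals were male Wistar rats, 10 weeks old, and all 8 arrays carry 1 treatment label, ethylene glycol each day together with vitamin D every second day for 1 week. Ethylene glycol is broken down to oxalate, and vitamin D raises calcium uptake. The groups are 4 arrays of kidney cortex and 4 of kidney medulla, all of that treatment, and no untreated group was analysed here. Replicate numbers follow accession order within a region and pair no arrays across regions. The labels do not say which arrays came from which animal, so the spread between arrays may be technical as well as biological.

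Cytokines of the IL-6 family bind a receptor chain of their own and share the signalling chain gp130, which Il6st encodes. Leukaemia inhibitory factor, the product of Lif, signals through LIFR with gp130, oncostatin M through OSMR or LIFR with gp130, and interleukin 6 through IL6R with gp130. The receptors activate Janus kinases, which phosphorylate STAT3, and STAT3 switches on Socs3, whose product binds gp130 and the kinases and shuts the signal down. In liver this route drives the acute phase genes, among them those of fibrinogen, and injured kidney tubules are known to make LIF.

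The array medians lay between 5.09 and 5.12 on the log2 scale and the lower quartiles between 4.44 and 4.48. Precision is limited by having 4 arrays a region. As a check of the region labels, genes fixed as markers of podocytes and proximal tubule had a lower mean in medulla in 8 of 8 measured genes, and genes of inner medullary collecting duct and osmolyte uptake had a higher mean there in 6 of 6. None of these 14 genes was called between the regions, and the sodium phosphate cotransporter gene Slc34a1 of the proximal tubule measured 9.71 to 11.01 on the medulla arrays against 10.42 to 11.10 on the cortex arrays.

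Among the ligands, Lif was low on 6 of the arrays and high on cortex replicate 4 and medulla replicate 4. Its log2 intensity was 5.05, 4.98, 5.14 and 8.05 on cortex replicates 1 to 4. On medulla replicates 1 to 4 it was 4.96, 4.99, 5.89 and 8.42. Medulla replicate 3 thus lay between the low arrays and medulla replicate 4, and no cortex array held such a middle value. The range was 8.40-fold in cortex and 11.02-fold in medulla. On 4 arrays Lif was under the median of all probe sets, so both folds start from signals dimmer than most of the array and may understate the difference. In whole tissue, more cells of a type and more RNA per cell cannot be told apart, here and for every gene below.

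Il6 itself stayed dim and flat. The cortex arrays gave 4.57, 4.60, 4.65 and 4.77 and those of medulla 4.55, 4.73, 4.59 and 4.64, under the array median on 8 of 8 arrays. Its range was 0.20 log2 units in cortex and 0.18 in medulla, and the highest value fell on cortex replicate 4 but on medulla replicate 2. At so low a signal a small change in Il6 would not be detectable.

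The start-site windows of 7 members were found in the RefSeq promoter table of build GRCr8. The 250 bases before each start site were searched on both strands for the letters TTCNNNGAA (a STAT site), TGANTCA (an AP-1 site), TGACGTCA (a cyclic AMP response element), TATAAA, and the consensus of NF-kB. Matches were found in 2 members, Il6 and Osmr, and they are shown because Il6 had the narrowest range of the members and Osmr one of the widest. Of the bases searched, 0 lay outside the gene span in Lifr, Il6r, Il6st and Socs3, 9 in Osmr and 96 in Stat3. The lack of a match in Lifr, Il6r, Il6st, Socs3 and Stat3 therefore says little about the sequence before those genes. The upstream part of Il6, the flat ligand gene, lies at chr4:5894576-5894825 on the minus strand, 5′ to 3′, with TGACGTCA and GGGATTTTCC in capitals. Of Osmr 30 bases at chr2:57688577-57688606 on the minus strand are given with TGATTCA in capitals. They lie before the start site of the table's window but inside the span of the Osmr gene in the RefSeq gene table, so they may be transcribed from another start.
Il6: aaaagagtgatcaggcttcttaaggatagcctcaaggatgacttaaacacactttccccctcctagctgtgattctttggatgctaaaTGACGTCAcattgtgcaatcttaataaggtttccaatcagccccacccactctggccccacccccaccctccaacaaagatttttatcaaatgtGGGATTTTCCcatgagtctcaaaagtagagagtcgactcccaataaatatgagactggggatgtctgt
Osmr: ttgccccgcagcTGATTCAtagccggggcg
The Il6 matches began 162 and 68 bases before its start site, the Osmr match 33 bases before. Neither overlapped another searched motif. Of the 33469 windows in the table, 1.59% held TGACGTCA, 0.314% the NF-kB consensus and 6.34% TGANTCA, while 7.67% held TTCNNNGAA and 12.9% TATAAA. A match is a run of letters, not a measured binding site.

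Of the receptor genes, Osmr showed the array pattern of Lif. Osmr encodes a chain of the oncostatin M receptor that also serves interleukin 31, and measured 6.95, 6.86, 6.66 and 9.06 in cortex. In medulla it measured 6.82, 6.70, 7.98 and 9.32. The replicate 4 arrays were again highest, medulla replicate 3 lay between, and the range was 5.28-fold in cortex and 6.17-fold in medulla. All its values were above the array medians.

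Lifr, the LIF receptor chain, lies next to Osmr on chromosome 2 with 0 protein-coding genes between them in the RefSeq table, but was not high where Osmr was high. Cortex replicates 1 to 4 gave 9.95, 9.88, 9.76 and 9.46, and those of medulla 9.74, 9.93, 9.94 and 9.69. Its lowest value in each region was on the replicate 4 array, by 0.49 log2 units from the highest in cortex and 0.25 in medulla. Medulla replicate 1, at 9.74, was close to medulla replicate 4.

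The shared chain gp130 varied less than Osmr. For Il6st the cortex arrays gave 8.34, 8.17, 8.07 and 8.58, and those of medulla 8.33, 8.09, 8.80 and 8.85. The replicate 4 arrays were highest in both regions, but medulla replicate 3 came within 0.052 of medulla replicate 4, and the ranges were 1.42-fold and 1.69-fold. Il6r, the chain that binds interleukin 6, stood at 5.21, 5.15, 5.01 and 5.23 over cortex replicates 1 to 4 and at 5.36, 5.07, 5.40 and 5.34 over those of medulla. It had a range of 0.22 and 0.34 log2 units and was not set apart on the replicate 4 arrays, where it stood within 0.024 of the next cortex array and below medulla replicates 1 and 3.

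Downstream of the receptors, Stat3 varied modestly and Socs3 strongly. Stat3 stood at 8.38, 8.21, 8.24 and 8.90 over the cortex arrays and at 8.38, 8.35, 8.56 and 9.05 over those of medulla, a range of 1.61-fold and 1.62-fold with the highest values on the replicate 4 arrays. Socs3 measured 5.37, 5.49, 5.33 and 7.51 in cortex. In medulla it measured 5.51, 5.52, 6.30 and 8.00. As for Lif and Osmr, 3 cortex arrays and 2 medulla arrays were close together, medulla replicate 3 lay above them and the replicate 4 arrays were highest. Its range was 4.51-fold in cortex and 5.60-fold in medulla.

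**Figure D1:**
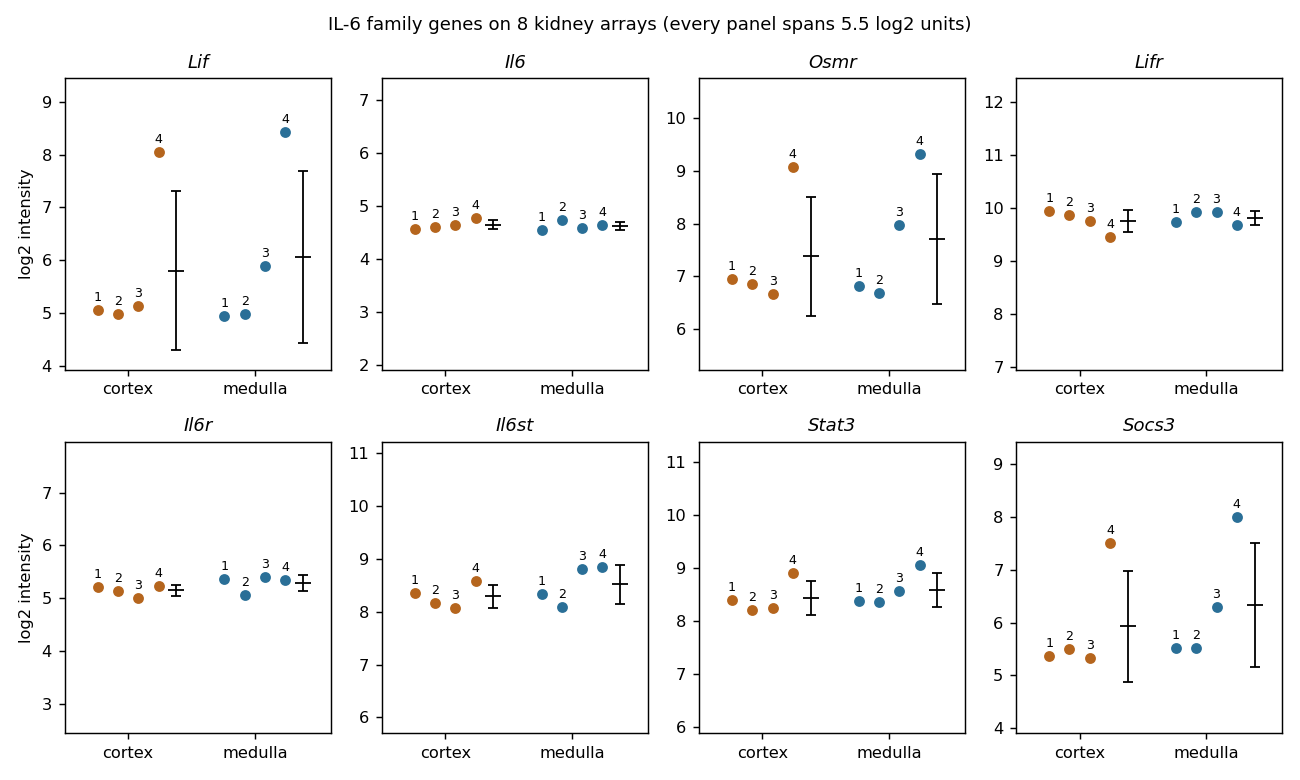
Log2 intensity of each IL-6 family gene on the 4 cortex (brown) and 4 medulla (blue) arrays, numbered by replicate, with the region mean and SD in black. Lif, Osmr and Socs3 reach 8.05, 9.06 and 7.51 on cortex replicate 4 and 8.42, 9.32 and 8.00 on medulla replicate 4, while Il6 stays between 4.55 and 4.77.

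Set in order of the smaller of the regional ranges, in log2 units, the members ran Lif 3.07, Osmr 2.40, Socs3 2.17, Stat3 0.69, Il6st 0.51, Lifr 0.25, Il6r 0.22 and Il6 0.18. Lif, Osmr and Socs3 stood 9th, 23rd and 36th of all 18166 genes by this measure and Stat3 1041st. The study's design text sets a 2-fold threshold on change within each region. Applied here to the range between arrays of 1 treatment label, which may be an unlike measure, that threshold fell between Socs3 and Stat3. These 3 genes passed it in cortex, where 3.60% of all genes did, in medulla, where 3.80% did, and in both regions, where 2.21% did. With the further condition that cortex replicate 4 and medulla replicate 4 were the highest arrays, the same 3 members and 0.941% of all genes remained. At a 3-fold range in both regions they again passed, beside 0.528% of all genes, and at 1.5-fold Stat3 joined them, beside 8.12%. In all, 5 of 8 members were highest on the replicate 4 array of both regions, Il6st and Stat3 being the others, against 17.0% of all genes. The members were chosen with values of these arrays known, so nothing is read from the counts.

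**Figure D2:**
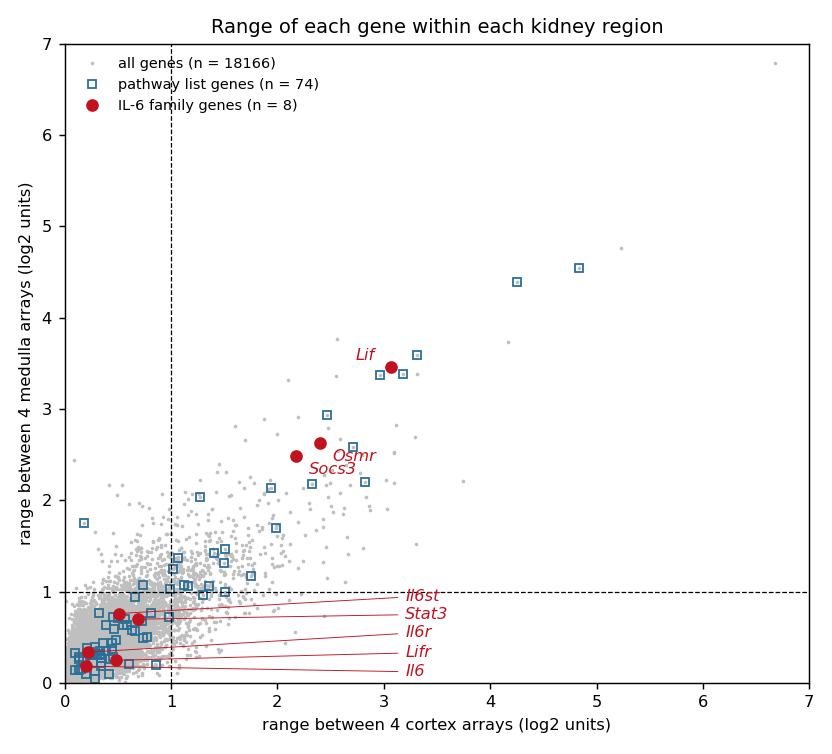
Range of each gene (highest minus lowest log2 value) between the 4 cortex arrays on the horizontal axis and the 4 medulla arrays on the vertical axis, for all 18166 genes (grey), 74 genes of pathway lists (blue squares) and the 8 IL-6 family genes (red), with dashed lines at a 2-fold range. Lif, Osmr and Socs3 lie past both lines and the other 5 members lie inside both.

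These ranges rested on 1 array in each region. Leaving out cortex replicate 4 narrowed the cortex range of Lif to 0.16 log2 units, of Osmr to 0.29 and of Socs3 to 0.16, and no member kept a 2-fold range in both regions. Leaving out medulla replicate 4 narrowed those of medulla to 0.93, 1.28 and 0.79, and Osmr alone passed in both. What remained in medulla was the difference between medulla replicate 3 and the 2 lower arrays. Stat3 ranged over 0.17 in cortex and 0.20 in medulla without those arrays.

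The other genes of the pathway were taken from 7 lists holding 88 genes, of which 74 were measured. A 2-fold range in both regions was found in 21 of the 74, beside 2.21% of all genes. Of these 21, 18 were highest on the replicate 4 arrays of both regions, and 0.941% of all genes met both conditions. Passing genes numbered 6 without cortex replicate 4, 9 without medulla replicate 4 and 4 without both. The median smaller range of the 74 was 0.48 log2 units against 0.17 over all genes, dim ones included. The lists were drawn up with earlier results of these arrays known, fibrinogen among them, so the counts are not independent evidence.

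Of 7 other ligand genes, 2 passed. Il11, whose product signals through its own receptor with gp130, gave 4.70, 4.83, 4.72 and 5.76 over the cortex arrays and 4.62, 4.78, 4.65 and 5.99 over those of medulla. On 6 arrays Il11 was under the array median. Clcf1, which encodes a ligand of the ciliary neurotrophic factor receptor, gave 5.33, 5.05, 5.35 and 6.56 over the cortex arrays and 5.27, 5.02, 5.40 and 6.48 over those of medulla. Both were highest on the replicate 4 arrays, but unlike Lif neither stood apart on medulla replicate 3. The ligand of OSMR did not share the pattern, since Osm measured 5.56 to 5.69 in cortex and 5.46 to 5.75 in medulla, a gene picked out after its values were seen.

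A 2-fold range in both regions, which 2.21% of all genes had, was found in 0 of 4 other receptor chains, 0 of 3 genes of receptor shedding and processing, 0 of 8 kinases and adaptors, 0 of 4 other STATs and 0 of 14 other inhibitors. Lists this short would hold few such genes at that share. The median smaller ranges of these lists were 0.31, 0.50, 0.27, 0.36 and 0.28 log2 units in that order, each above the 0.17 of all genes. That 0.17 includes dim genes, and the lists were not set against genes of like signal. The widest smaller ranges of the lists in log2 units were 0.58 for the interleukin 11 receptor gene Il11ra1 and 0.66 for the peptidase gene Ace. They were 0.57 for the adaptor gene Shc1, 0.50 for Stat5a and 0.99 for the phosphatase gene Ptpn2. Ptpn2 measured 7.03 on cortex replicate 4 and 7.22 on medulla replicate 4, against 6.04 to 6.26 and 6.20 to 6.69 on the other arrays. Il11ra1 and Stat5a ran the other way and were lowest on both replicate 4 arrays, at 5.87 and 5.84 for Il11ra1 and 5.20 and 5.30 for Stat5a. Ace was highest on replicate 3 of both regions, at 8.38 and 8.39.

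Genes listed as responding to STAT3 held most of the wide ranges. Of 34 measured, 19 had a 2-fold range in both regions, beside 2.21% of all genes. Highest on both replicate 4 arrays were 26 of the 34, beside 17.0% of all genes. The median smaller range of the 34 was 1.06. The widest were the fibrinogen chain genes Fgb at 4.55, Fga at 4.26 and Fgg at 3.18, and the chaperone gene Clu at 3.31. Of the 19, 3 were not highest on both replicate 4 arrays, the repressor gene Bcl6 and the immediate early genes Fos and Egr1, named after their values were seen. Egr1 was highest in cortex on replicate 1, at 8.76, where Lif and Socs3 were low, against 8.46 on replicate 4. The acute phase gene Hp, which encodes haptoglobin and was also picked out after its values were seen, lay between 4.48 and 4.63 on all 8 arrays.

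**Figure D3:**
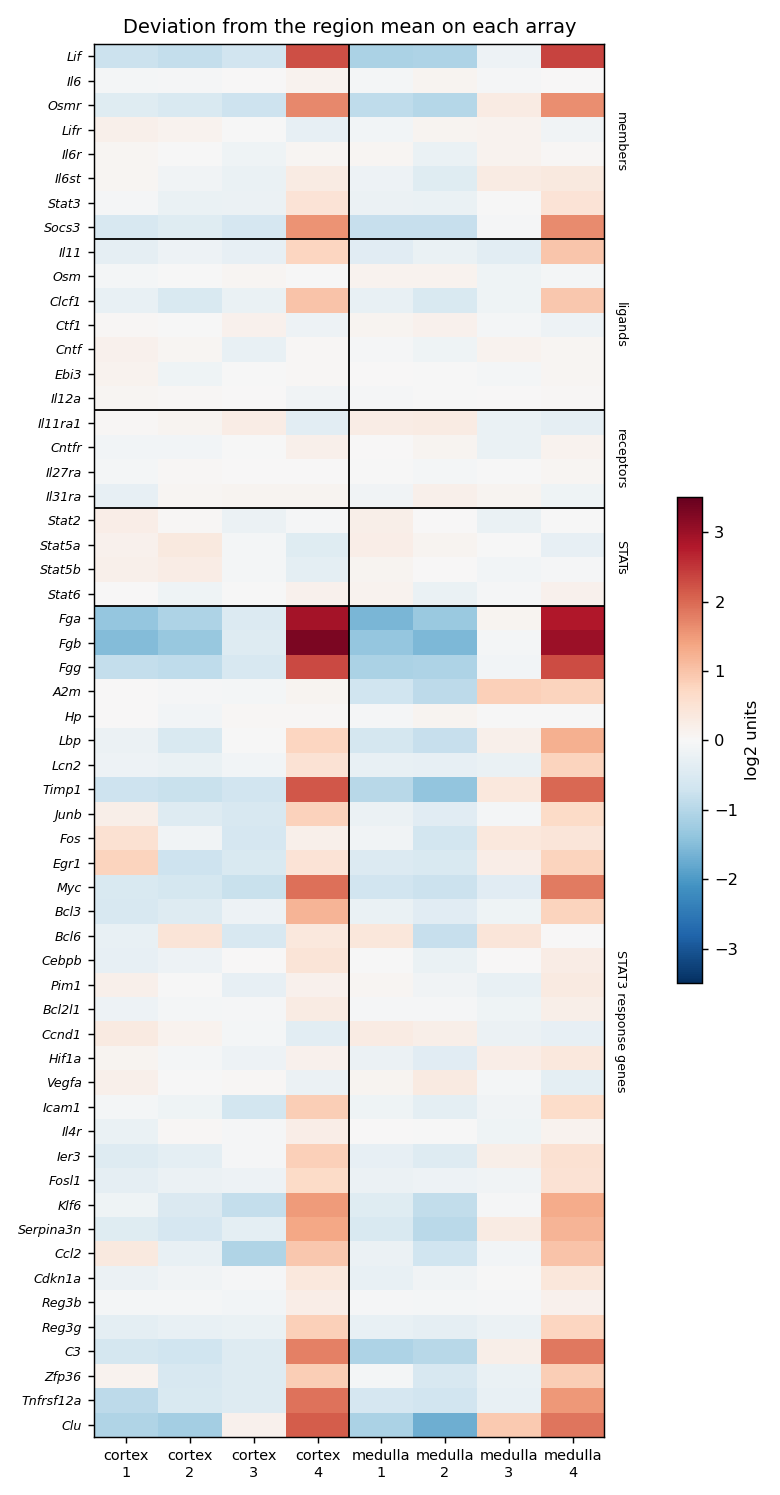
Log2 deviation of each gene from the mean of its region (colour, blue lower and red higher) on the 4 cortex and 4 medulla arrays, for the members, other ligands, other receptor chains, other STATs and 34 listed STAT3 response genes. The red columns are cortex replicate 4 and medulla replicate 4, where Lif, Osmr and Socs3 stand with Il11, Clcf1 and 16 of the 19 response genes that passed a 2-fold range in both regions.

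The genes most like each strongly varying member were found from the root mean square difference of their deviations from the region means over the 8 arrays, in log2 units. For Lif the closest of all genes was the fibrinogen gamma chain gene Fgg, at 0.068, followed by the phosphate transporter gene Slc34a2 at 0.25, the metalloproteinase inhibitor gene Timp1 at 0.26, the protease gene Adamts1 at 0.27 and the lipase inhibitor gene Angptl4 at 0.29. Fgg stood at 4.49, 4.46, 4.77 and 7.64 over the cortex arrays and at 4.48, 4.49, 5.49 and 7.86 over those of medulla. With both replicate 4 arrays left out the Lif and Fgg difference was 0.065 and Fgg stood 8th, whereas Timp1 stood 2331st. Osmr and Socs3 were each other's closest gene, at 0.15. Next to Osmr came the complement gene C3 at 0.17, Rasd1 at 0.23, Nabp1 at 0.23 and the hyaluronan-degrading gene Cemip at 0.26. Next to Socs3 came Cemip at 0.16, the actinin gene Actn1 at 0.18, Nabp1 at 0.18 and C3 at 0.20. Without the replicate 4 arrays Socs3 stood 45th in likeness to Osmr and C3 30th, but Osmr stood 1148th in likeness to Socs3 and Cemip 1081st. The measure depends on the size of the range, which for these genes was set by the replicate 4 arrays.

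**Figure D4:**
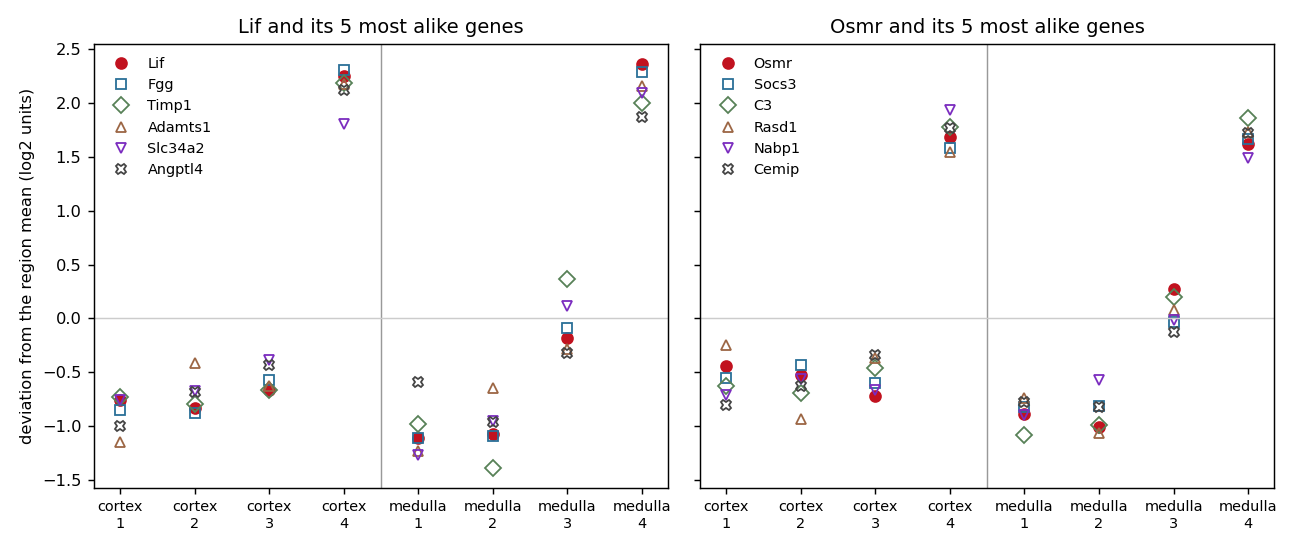
Deviation from the region mean, in log2 units, on each of the 8 arrays for Lif with its 5 closest genes (left) and Osmr with its 5 closest genes (right). Fgg lies close to Lif, with a root mean square difference of 0.068, and Socs3 follows Osmr at 0.15.

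Most listed markers of injured tubule were high on the same arrays as Lif, Osmr and Socs3. All 15 such genes were measured, and 11 were highest on both replicate 4 arrays, beside 17.0% of all genes. Of the rest, Vcam1 was highest on cortex replicate 1 and medulla replicate 3, and Lgals3 on cortex replicate 4 but medulla replicate 1. Krt20 and Sox9 were under the array median on all arrays. Of the 15, 10 had a 2-fold range in both regions with the highest values on the replicate 4 arrays, beside 0.941% of all genes. The summed intensity of the 15 was 2030 to 11677 in cortex and 2222 to 14094 in medulla. Bright genes weigh most in such a sum. Here these were Clu, Spp1 and Havcr1, at 11.95, 11.64 and 11.27 log2 units on cortex replicate 4. The sum was highest on cortex replicate 4 and medulla replicate 4 and next highest on medulla replicate 3, at 7421, and these were the 3 highest arrays of Lif, Osmr and Socs3. Of the 15, 3 also stand in the STAT3 response list (Clu, Lcn2, Timp1). On cortex replicate 3 the genes went different ways. There the injury gene Havcr1, picked out after its values were seen, measured 7.54 against 4.59 and 5.15 on cortex replicates 1 and 2. Lif measured 5.14 there against 5.05 and 4.98, while Osmr and Socs3 were at their lowest cortex values. So were the injury markers Spp1, Vcam1, Cd44, Anxa2 and S100a6, and the other injury markers were lowest in cortex on replicate 1 or 2. Leukocyte markers, 17 of 18 measured, summed to 2180 to 2740 in cortex and 2217 to 3230 in medulla. The sum was highest on cortex replicate 4 and medulla replicate 4, but cortex replicate 1 came close, at 2667. The cortex order leaned on Cd74, the brightest of these genes, at 10.71 on cortex replicate 4 and 10.31 on cortex replicate 1. Lyz2, the next brightest, ran the other way, at 8.58 and 9.18. Of the 17 genes, 5 were highest on both replicate 4 arrays, beside 17.0% of all genes. A 2-fold range in both regions was found in 2 of the 17, and in 0 with both replicate 4 arrays highest. Under the array median on all arrays were 8 of the 17, the neutrophil genes S100a8, S100a9 and Mpo included. Fibroblast and pericyte markers, 11 of 12 measured, summed to 1711 to 3281 in cortex, highest on replicate 1, and to 2095 to 5136 in medulla, highest on replicate 4. Of the 11, 7 had a 2-fold range in both regions, beside 2.21% of all genes, and 1 of them was highest on both replicate 4 arrays. Endothelial markers, 6 of 9 measured, had their lowest sums on the replicate 4 arrays, at 773 and 1046, against at most 1396 in cortex and 1547 in medulla. Cdh5 alone was not lowest on medulla replicate 4, at 7.69 against 7.58 and 7.38 on medulla replicates 1 and 2. Urothelial markers, 6 of 7 measured, summed to 400 to 449 in cortex and 452 to 794 in medulla. The 4 measured hepatocyte markers of 7, albumin among them, were under the array median on all arrays, with sums of 101 to 103 and 99.4 to 102. The part of these cells in the ranges of the members was not tested.

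The labels allow 1 comparison between groups, medulla against cortex, and the members did not separate the regions. All 8 overlapped between the regions, as did all 74 genes of the pathway lists, and 2.83% of all genes did not overlap. Lif averaged 5.81 ± 1.497 (SD, n = 4) over the cortex arrays and 6.06 ± 1.63 (SD, n = 4) over those of medulla, which differ by 0.26 ± 0.99 (SE). Osmr stood at 7.38 ± 1.13 (SD, n = 4) and 7.70 ± 1.22 (SD, n = 4), a difference of 0.32 ± 0.74 (SE). Socs3 stood at 5.93 ± 1.05 (SD, n = 4) and 6.33 ± 1.17 (SD, n = 4), a difference of 0.40 ± 0.70 (SE). These standard errors exceed the differences, since arrays of a region differed more than the regions did.

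The steadier members had narrower errors. The difference was 0.23 ± 0.19 (SE) for Il6st, 0.15 ± 0.20 for Stat3, 0.14 ± 0.085 for Il6r, 0.060 ± 0.11 for Lifr and -0.020 ± 0.059 for Il6. By limma with Benjamini-Hochberg adjustment over all genes, the adjusted p of the members lay between 0.876 and 0.976, and 0 were called, beside 0% of all genes. An unadjusted limma p under 0.05 was reached by 0 of the 8 members and by 971 of 18166 genes. The smallest p of the exact two-sided permutation test over arrays was 0.171, for Il6r, and the others lay between 0.314 and 0.714. In the pathway lists limma called 0 of 74 genes, 0 higher and 0 lower, and 1 reached an unadjusted limma p under 0.05, the ligand gene Cntf with a difference of 0.25 ± 0.10 (SE) and an adjusted p of 0.875. Without medulla replicate 4 the difference was -0.53 for Lif, -0.22 for Osmr and -0.15 for Socs3, and without cortex replicate 4 it was 1.01, 0.88 and 0.93.

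**Figure D5:**
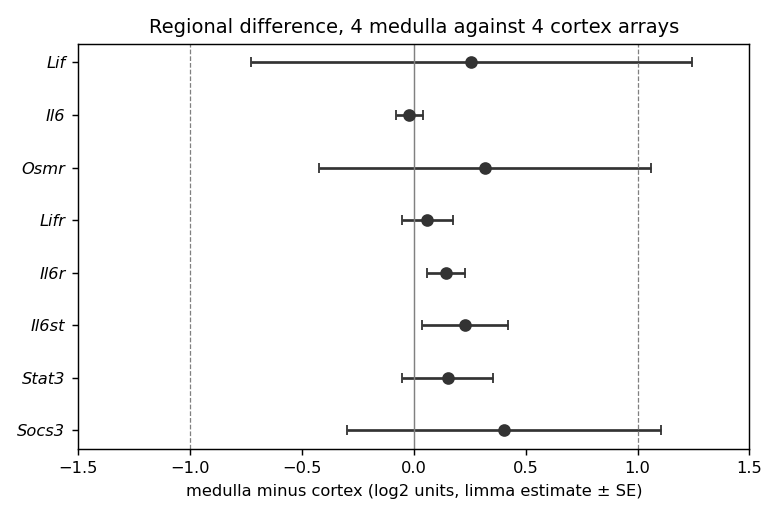
Medulla minus cortex difference of each member in log2 units (point) with its standard error (bar) from limma, 4 arrays a region; dashed lines mark a 2-fold difference. The bars of Lif, Osmr, Socs3, Stat3, Lifr and Il6 span 0. Those of Il6st and Il6r do not, but neither gene was called, and all points lie within a 2-fold difference.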

How the data were processed

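Targets of sense-strand DNA were prepared from total RNA of homogenised kidney, per the labels' protocols. A single table was deposited, in which the authors give a linear intensity per probe set. The submitters' processing notes name RMA and Affymetrix Expression Console, with versions and array annotation build not given in the sources used here. RMA normalizes between arrays, which removes shifts common to a whole array.

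The values were logged to base 2 with no pseudocount, as none was 0 or below. Of 29870 probe sets, 18511 carry 1 gene symbol in the platform annotation, 575 several and 10784 are unnamed here. By Entrez identifier 18394 matched the rat RefSeq table (GRCr8), and 0 symbols changed. For a gene with several probe sets the brightest was kept, which gave 18166 genes. No 2 arrays shared over 1 identical value.

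Medulla was set against cortex in limma 3.58.1 (R 4.3.3) by lmFit and eBayes, with p-values adjusted by Benjamini-Hochberg across the 18166 genes; a call needed a 2-fold difference and an adjusted p below 0.05. The pipeline was tested on simulated data. A range is the highest minus the lowest log2 value of a region. Named were the members, up to 4 genes per pathway list with the largest smaller regional range of at least 2-fold (else 1), and the 5 genes closest to each member that passed 2-fold in both regions. Members and lists were chosen with earlier results of these data known. Alternatives were median centring, quantile normalization, averaged probe sets, genes up to the 30th percentile of signal left out, each array left out, a trended robust prior, array weights, other thresholds and, added after seeing the data, both replicate 4 arrays left out. Figures used matplotlib 3.10.9.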

Additional observations from a re-analysis of the deposited data

Results flagged for a closer look

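In each region the highest and the lowest array of the 8 members and 11 named pathway genes was set against the other 3 by its gap over the range, 38 groups in all. Chance sets apart about 1 group in 20 and 7 were set apart here, but the pathway genes were named for their wide ranges and the members chosen with these values known, so the share is no test. Of the members, Lif at 8.05, Osmr at 9.06 and Socs3 at 7.51 on cortex replicate 4 stood far above the other cortex arrays, which reached 5.14, 6.95 and 5.49. On the same array Il11 at 5.76 and Fgg at 7.64 stood apart from others of at most 4.83 and 4.77. In medulla only Il11 was set apart among these genes, at 5.99 on medulla replicate 4 against at most 4.78. Ace stood apart on cortex replicate 3, at 8.38 against at most 7.79.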

How the results depend on the processing

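No alternative called a member or any gene between the regions. The sign of small differences turned. With each array left out in turn the medulla minus cortex difference ran from -0.53 to 1.01 for Lif, -0.22 to 0.88 for Osmr, -0.15 to 0.93 for Socs3, -0.0040 to 0.31 for Stat3, -0.040 to 0.12 for Lifr and -0.054 to 0.022 for Il6. With array weights Lifr stood at -0.012. The number of members with a 2-fold range in both regions ran from 0 to 3 with 1 array left out, 0 without cortex replicate 4 and 1 without medulla replicate 4, and that of pathway genes from 6 to 21. With both replicate 4 arrays left out, a setting added after seeing the data, these were 0 and 4, and the Il6 difference was 0.018. At a 3-fold range 11 pathway genes passed. Il6 was left out by the filter on dim genes. The cause of these changes was not tested. No paired analysis was possible because the labels number the arrays 1 to 8 and tie none of them across regions. Signal near or under the array median limits the folds of Lif, Fgg and Il11.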
